A study of Mus musculus with 10 samples.

Results

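The creatine system of the mouse ventricle was followed through 6 genes: Gatm and Gamt, which make creatine, Slc6a8, which imports it, and Ckm, Ckb and Ckmt2, which charge and spend it. The members were picked by gene symbol, with the results of the same comparison already known, from the genes that had a probe set of 1 symbol. Each of the 6 had 1 probe set, and all 6 were among the 13870 genes, of 19938 named on the array, that were bright enough to be tested. Because the members were chosen with this comparison in view, their values are given as a description, and their limma calls are not read as a test.

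Ventricle RNA was read on 10 Affymetrix arrays, deposited as separate samples. All the mice are labelled as PGC-1a knockouts. By the source names both groups also carried floxed PGC-1b alleles and MerCre, a form of Cre whose activity needs tamoxifen; the titles give the vehicle group only as PGC-1a-/-. For 5 arrays the mice received tamoxifen at 2 months of age (50 mg/kg per day on 2 days) and are labelled as lacking PGC-1b too; for the other 5 they received sunflower seed oil alone, and all were sampled at 3 months. Which promoter drives MerCre was not given in the sources used here. No mice without floxed alleles or without MerCre received tamoxifen, so loss of PGC-1b, Cre activity and the drug cannot be told apart.

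Creatine is made in 2 steps. Gatm moves an amidino group from arginine to glycine inside mitochondria and leaves ornithine, and Gamt, a cytosolic enzyme, methylates the product with S-adenosylmethionine. Muscle is known to import most of its creatine from blood through the transporter Slc6a8, which takes up creatine together with sodium and chloride. Creatine kinases move phosphate between ATP and creatine. Ckmt2 sits between the mitochondrial membranes, where ATP arrives from the matrix. Ckm, the muscle form, and Ckb, the brain form, work in the cytosol beside the ATPases.

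The 300 bases around the start of Gamt, the member that differed most, and of Ckmt2, the member that was lower with groups apart, are shown to let their start regions be compared. They are RefSeq promoter windows of build GRCm38.p6, from 250 bases before to 50 after the start, read 5′ to 3′ on the gene's strand. Capitals mark matches on either strand to 4 motifs. The GC box was searched as GGGCGG, which Sp1-like factors read. The CCAAT box was searched by the letters of its name. The TATA box was searched as TATAAA. The receptor site was searched as AAGGTCA, which estrogen-related and NR4A receptors read. In the windows shown no match overlaps another. Gamt lies at chr10:80260963-80261262 on the minus strand and Ckmt2 at chr13:91876836-91877135 on the minus strand.
Gamt: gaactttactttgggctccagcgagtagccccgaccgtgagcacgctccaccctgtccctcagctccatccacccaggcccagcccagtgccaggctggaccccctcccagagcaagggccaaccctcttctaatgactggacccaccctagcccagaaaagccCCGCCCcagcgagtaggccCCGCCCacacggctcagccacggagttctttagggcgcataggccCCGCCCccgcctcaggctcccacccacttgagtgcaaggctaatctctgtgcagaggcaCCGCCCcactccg
Ckmt2: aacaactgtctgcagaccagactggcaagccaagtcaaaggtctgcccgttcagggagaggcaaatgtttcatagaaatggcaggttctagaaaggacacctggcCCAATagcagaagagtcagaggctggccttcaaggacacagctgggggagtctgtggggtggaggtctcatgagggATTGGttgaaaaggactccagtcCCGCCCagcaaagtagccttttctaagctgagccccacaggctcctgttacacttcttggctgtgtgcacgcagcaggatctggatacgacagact
The Gamt window was 66.0% G or C and held 4 GC boxes, while the Ckmt2 window was 53.7% G or C and held 1 GC box and 2 CCAAT boxes. Windows were matched for 5 of the 6 members. Of these 5, Ckb alone held the exact letters TATAAA, 28 bases before its start, with 2 CCAAT boxes. Gatm held 2 CCAAT boxes, and Ckm had no exact match to the 4 motifs. The Ckm window does hold TATATAA, a close variant of the TATA box that the search could not match. The receptor site was in 0 of the 5 windows. Over all 32851 windows of the same length, 35.7% held a GC box, 37.4% a CCAAT box, 13.6% a TATA box and 4.7% the receptor site. A match describes letters and shows no binding.

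As a check of the labels, Ppargc1b, the gene of PGC-1b, read 9.65 to 9.90 on the log2 scale in the vehicle-labelled arrays and 9.93 to 10.15 in the tamoxifen-labelled arrays, higher where the labels say it was deleted. It rose by 0.27 ± 0.061 (SE; limma adjusted p = 0.00518). Ppargc1a, the gene of PGC-1a, which the labels give as knocked out in both groups, read 10.70 to 11.04 in the vehicle-labelled and 10.95 to 11.58 in the tamoxifen-labelled arrays, all above the 6.55 below which genes were left out. It rose by 0.39 ± 0.095 (SE; limma adjusted p = 0.00797). Both genes thus went against their labels. It was not known whether these probe sets fall in the deleted exons, and outside them they would be no check. The direction of each difference depends on the labels being right. The median signal of tamoxifen-labelled array 2 was 7.31, while those of the other 9 arrays ran from 7.18 to 7.24. Of 9 cardiomyocyte markers, which define the labelled tissue, all 9 were tested, and their mean log2 signal per array ran from 13.82 to 13.85 in the vehicle-labelled and from 13.82 to 13.84 in the tamoxifen-labelled arrays. Most of these markers read near the top of the signal range, from 13.81 to 14.56 in the vehicle-labelled group, which limits what a level mean can show. The dimmer ones, Ryr2 (12.90) and Mybpc3 (12.57), differed by -0.16 and -0.15. Each had 4 of 5 tamoxifen-labelled arrays below all vehicle-labelled ones. Mybpc3 was not called (limma adjusted p = 0.0525). Brighter markers went the other way. Myh6 and Myl3 differed by 0.05 and 0.11, each with all 5 tamoxifen-labelled arrays above all vehicle-labelled ones. Actc1 and Pln differed by 0.052 and 0.044, each with 4 of 5 above, and none of these brighter markers was called. The list median was 0.032. In bulk tissue, fewer cells of a type and less RNA per cell cannot be told apart.

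Among the 6 members, Gamt, Slc6a8 and Ckm were higher and Ckmt2 was lower in the tamoxifen-labelled arrays, each with groups that did not overlap. Gatm and Ckb overlapped between the groups. By limma at an adjusted p of 0.05, 4 of the 6 were called, and the same share over all tested genes was 22.1%; 4 of 6 had groups that did not overlap, against 16.7% of all tested genes. The contrast was known when the members were chosen, so nothing is read from these shares. Gamt, Slc6a8, Ckm and Ckmt2 were called in all 21 alternative settings, Ckb in 7 of the 21 and Gatm in 0. These settings refit the same arrays, so the counts describe the effect of processing and add no independent support.

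**Figure D1:**
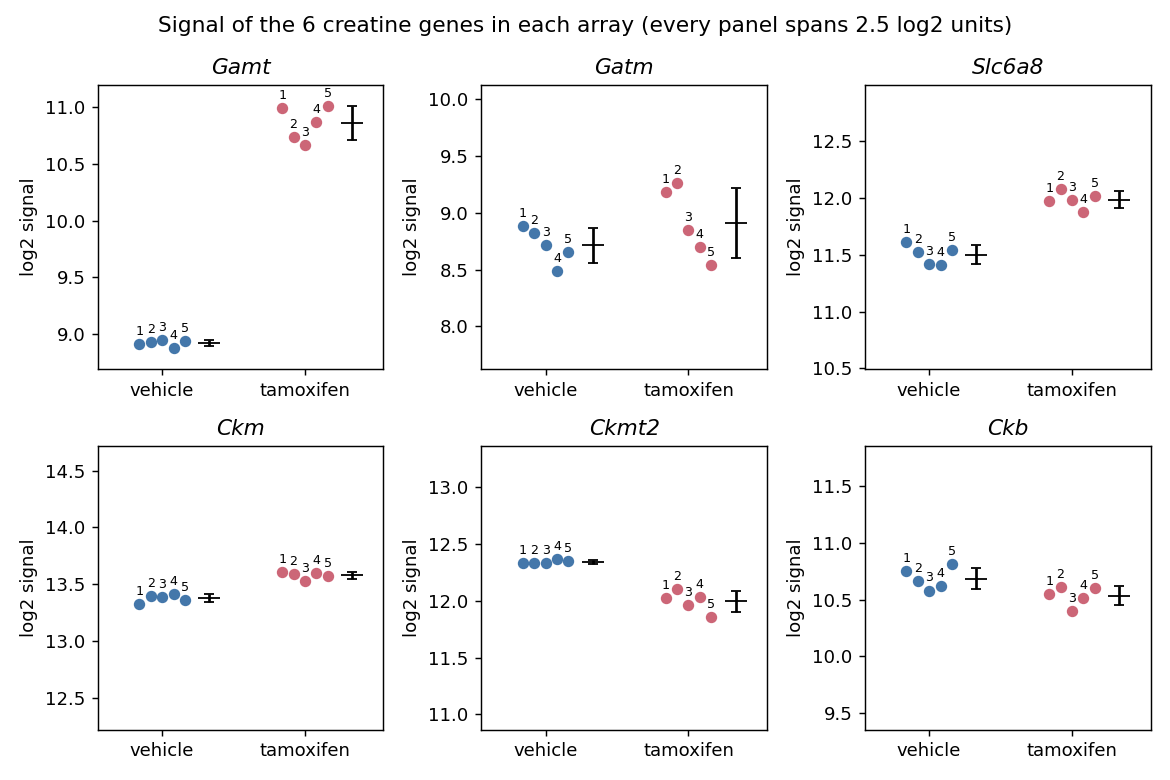
Log2 signal (vertical axis) of each member in each array, with the vehicle-labelled arrays on the left and the tamoxifen-labelled arrays on the right of every panel. Points are arrays with their number, and bars are the mean ± SD of 5 arrays. The groups are apart for Gamt, Slc6a8, Ckm and Ckmt2 and overlap for Gatm and Ckb.

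Gamt, the methyltransferase of the closing step, read 8.91, 8.93, 8.95, 8.88 and 8.94 in vehicle-labelled arrays 1 to 5 and 10.99, 10.74, 10.67, 10.87 and 11.01 in tamoxifen-labelled arrays 1 to 5. The vehicle-labelled arrays were almost level, and all 5 tamoxifen-labelled arrays lay above them by at least 1.72. The difference was 1.93 ± 0.064 on the log2 scale (SE), 3.82-fold, and 0 of the other tested genes had a higher log2 fold change. The spread was wider in the tamoxifen-labelled group, with an SD of 0.15 against 0.028 (n = 5 each).

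Gatm, the amidinotransferase of the opening step, read 8.88, 8.82, 8.72, 8.49 and 8.65 in the vehicle-labelled arrays and 9.18, 9.26, 8.85, 8.70 and 8.54 in the tamoxifen-labelled arrays. Tamoxifen-labelled arrays 1 and 2 were above every vehicle-labelled array and the other 3 lay within their range. The difference was 0.19 ± 0.12 (SE), and it was 0.13 without tamoxifen-labelled array 1, 0.11 without tamoxifen-labelled array 2 and 0.05 without the latter and vehicle-labelled array 4 together. Leaving out other arrays raised it, to 0.29 without tamoxifen-labelled array 5 and 0.25 without tamoxifen-labelled array 4. Gatm was the most variable member within groups. Its residual SD of 0.24 was at or above that of 99.3% of the tested genes, whereas that of Gamt, 0.11, was at the 65.2nd percentile.

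Within each array, the signal of Gamt minus that of Gatm was 0.03 to 0.39 in the vehicle-labelled and 1.48 to 2.47 in the tamoxifen-labelled arrays, a shift of 1.74 on the log2 scale (3.34-fold). Signals of different probe sets cannot be ranked as amounts, but their difference within an array can be compared between groups. The signals of the 2 synthesis genes thus moved unequally.

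Slc6a8, the creatine transporter, read 11.61, 11.52, 11.42, 11.41 and 11.54 in the vehicle-labelled arrays and 11.97, 12.08, 11.98, 11.88 and 12.02 in the tamoxifen-labelled arrays. The lowest tamoxifen-labelled array lay 0.27 above the highest vehicle-labelled one. The difference was 0.49 ± 0.055 (SE), 1.40-fold. Slc6a8 is on the X chromosome; Xist, the RNA of the inactive X, read 11.55 to 11.76 in the vehicle-labelled and 11.62 to 11.82 in the tamoxifen-labelled arrays, so high in all 10.

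Ckm, the cytosolic kinase of striated muscle, read 13.33, 13.40, 13.39, 13.41 and 13.36 in the vehicle-labelled arrays and 13.61, 13.59, 13.53, 13.60 and 13.57 in the tamoxifen-labelled arrays. The groups were apart by 0.12, and the difference was 0.20 ± 0.044 (SE), 1.15-fold. Its mean signal was at or above that of 99.7% of the genes on the array. Its residual SD, 0.032, was among the lowest, at the 0.541st percentile of the tested genes. A signal this near the top of the range limits what its SD and its difference, alone or against another kinase, can show.

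Ckmt2, the mitochondrial kinase of striated muscle, read 12.33, 12.33, 12.33, 12.37 and 12.35 in the vehicle-labelled arrays and 12.02, 12.10, 11.96, 12.03 and 11.86 in the tamoxifen-labelled arrays. Every tamoxifen-labelled array was below every vehicle-labelled one, by at least 0.23. The difference was -0.35 ± 0.051 (SE), 1.27-fold lower. Beside it, 71 of 73 tested genes of oxidative phosphorylation were called lower by limma at an adjusted p of 0.05, against 8.31% of all tested genes. The log2 fold changes of the 73 ran from -1.36 to -0.07 with a median of -0.69, and 62 of them were lower than that of Ckmt2. The smallest p-values there belonged to Atp5k, a subunit of ATP synthase, at -1.36, the complex I genes Ndufv1, Ndufa9 and Ndufb7 (-1.15, -1.05 and -1.03) and the complex III genes Uqcrq and Uqcrfs1 (-1.05 and -1.13).

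Ckb, the cytosolic kinase named for the brain, read 10.75, 10.66, 10.58, 10.62 and 10.81 in the vehicle-labelled arrays and 10.55, 10.61, 10.40, 10.51 and 10.60 in the tamoxifen-labelled arrays. The groups overlapped by 0.03, and the difference was -0.15 ± 0.058 (SE). The vehicle-labelled arrays 1, 2, 4 and 5 lay above all tamoxifen-labelled arrays.

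The kinases shifted against each other within arrays. Ckm minus Ckmt2 was 1.00 to 1.07 in the vehicle-labelled and 1.49 to 1.71 in the tamoxifen-labelled arrays, a shift of 0.55 on the log2 scale (1.46-fold). Ckm minus Ckb was 2.55 to 2.81 and 2.97 to 3.13, a shift of 0.35 (1.28-fold). Neither difference overlapped between the groups. For Ckm and Ckmt2 this follows from their own values, which were apart in opposite directions, so it adds nothing to them.

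**Figure D2:**
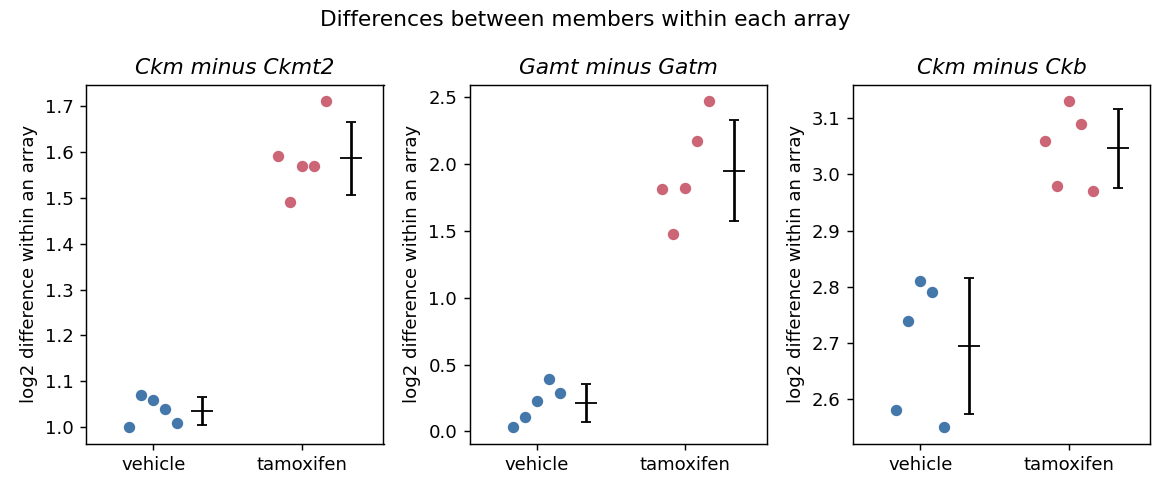
Log2 difference between a pair of members within each array (vertical axis) for vehicle-labelled and tamoxifen-labelled arrays; points are arrays and bars are the mean ± SD of 5. All 3 differences are higher in the tamoxifen-labelled arrays, by 0.55, 1.74 and 0.35 from left to right.

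**Figure D3:**
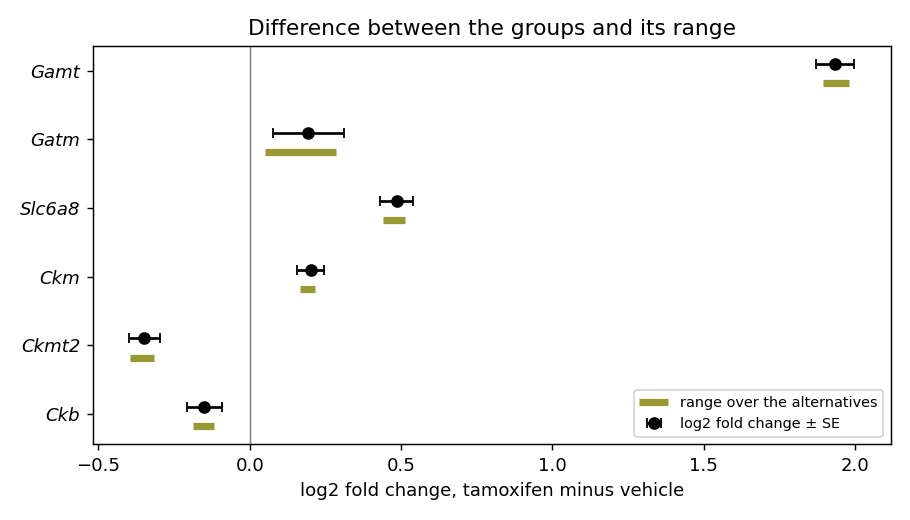
Log2 fold change, tamoxifen-labelled minus vehicle-labelled, of each member (points with SE bars) above the range of the same value over 21 alternative settings (thick lines). Gamt runs from 1.90 to 1.98, Gatm from 0.05 to 0.29 and Ckmt2 from -0.40 to -0.31.

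For each member the 3 tested genes with the most similar signal over the 10 arrays were taken, by Pearson's r, which carries the difference between the groups as well as the spread within them. As these are the best of 13870 genes over 10 arrays, r is high by selection, and it is a description. For Gamt they were Eno3, a muscle enolase (r = 0.994), Sgcb, a sarcoglycan (0.991), and Cfap126 (0.990). After the group means were taken away r was 0.634, 0.483 and 0.592. For Ckm they were Cfap126 again (0.984), Orai3 (0.982) and Lrg1 (0.981), and for Slc6a8 Zfp52 (0.988), Tax1bp3 (0.986) and Grk3 (0.986). For Ckmt2 they were the mitochondrial transcription factor gene Tfb2m (0.987), Etfb, an electron transfer flavoprotein subunit (0.985), and Dnajc28 (0.982), with r of 0.885, 0.843 and 0.807 within groups. For Ckb they were Tomm7 (0.939), of the outer-membrane import pore, Tmem71 (0.936) and Gpc1 (0.924). For Gatm they were the kinase gene Mapk14 (0.966), Pafah1b1 (0.961) and Tbl1x (0.957), and here r was as high within groups, at 0.961, 0.954 and 0.958.

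The genes around the creatine pathway were taken from lists and tested with limma over all 13870 genes; 13.7% of these were called higher and 8.31% lower, and their median log2 fold change was 0.014. In counts of listed genes, rose and fell mean called higher and called lower. Of the 3 further genes listed as tied to creatine itself, 0 were called. The second mitochondrial creatine kinase gene Ckmt1 differed by -0.092 ± 0.067, and the transporter genes Slc16a12 and Slc16a9 by 0.0060 ± 0.082 and -0.090 ± 0.054 (SE; limma adjusted p = 0.362, 0.970 and 0.255). Beside Slc6a8, 9 other members of the SLC6 family were tested and 0 were called, among them the taurine transporter gene Slc6a6 (0.052 ± 0.058). Without vehicle-labelled array 4, 1 of them was called higher, and without tamoxifen-labelled array 2, 1 was called lower. The remaining 9 of the 18 other SLC6 genes measured were too dim to be tested.

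In arginine and ornithine metabolism, which supplies Gatm and takes up its by-product, 4 of 15 tested genes rose and 1 fell (median 0.072). Ddah1, which breaks down methylarginines, rose by 0.63 ± 0.063 (limma adjusted p = 1.83e-06), Slc7a2, a transporter of arginine, by 0.45 ± 0.062 (6.23e-05) and the nitric oxide synthase gene Nos1 by 0.41 ± 0.065 (0.000244). Oat, the aminotransferase that uses ornithine, fell by 0.19 ± 0.052 (limma adjusted p = 0.0155). The fourth gene that rose was Srm, spermidine synthase (0.15), whose call was lost in 13 of 21 alternatives. In the glycine and serine list 2 of 12 were higher and 2 lower (median -0.011), against 13.7% and 8.31% of all tested genes. Psat1, of serine synthesis, rose by 0.49, Slc38a2, an amino acid transporter, rose by 0.25 with a call lost in 13 of 21 alternatives, while Gcat, which splits a threonine product to glycine, fell by 0.27. Dld, the dehydrogenase shared by the glycine cleavage system and the 2-oxoacid dehydrogenases, fell by 0.93.

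The methyl cycle, which supplies the methyl group that Gamt uses, had 3 of 10 tested genes higher and 4 lower (median -0.050). Mat2b, the regulatory subunit of methionine adenosyltransferase, fell by 0.29, Slc25a26, which carries S-adenosylmethionine into mitochondria, by 0.28 and Cth, which makes cysteine from cystathionine, by 0.35. Ahcyl2 rose by 0.29 and its relative Ahcyl1 fell by 0.21; Mtap, which salvages methionine, rose by 0.22. The highest limma adjusted p of these 6 was 0.00797. Mat2a and Ahcy had no probe set of 1 symbol and were not analysed here. Among 10 other methyltransferases of small molecules 1 rose and 3 fell (median -0.096). Nnmt, which methylates nicotinamide, rose by 0.21 ± 0.059, Inmt fell by 0.44 ± 0.097, Gnmt, which methylates glycine, fell by 0.18 with a call lost in 9 of 20 alternatives, and Coq5, of coenzyme Q synthesis, fell by 1.05 ± 0.069.

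Adenylate kinases move phosphate between adenine nucleotides beside the creatine kinases. In their list, with nucleoside diphosphate kinases and AMP-degrading enzymes, 4 of 12 tested genes rose and 2 fell (median 0.082). Ak1, the cytosolic adenylate kinase, fell by 0.53 ± 0.046 (limma adjusted p = 4.20e-07), from 12.06 ± 0.032 to 11.53 ± 0.055 (SD, n = 5). The AMP deaminase gene Ampd3 fell by 0.50 ± 0.072. Rises were seen for the nucleoside diphosphate kinase genes Nme3 (0.63 ± 0.054) and Nme6 (0.21 ± 0.057), for Nt5c1a, which turns AMP into adenosine (0.28 ± 0.055), and for Ak4, a mitochondrial adenylate kinase (0.20 ± 0.065), whose call was lost in 7 of 21 alternatives. The call of Nme6 was lost when its probe sets were averaged (0.14, limma adjusted p = 0.0680, against 0.0131).

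Of 8 genes of the AMP-activated protein kinase, which senses AMP, and its activating kinase, 3 rose and 2 fell (median 0.097). The subunit genes Prkaa2, Prkab2 and Prkag2 rose by 0.24, 0.24 and 0.22, and Prkag1 fell by 0.16. Stk11, the activating kinase gene, fell by 0.18, and its call was lost in 7 of 21 alternatives.

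Most of the listed carriers, channels and other membrane proteins around Ckmt2 had lower signals. Of 7 tested genes 6 fell and 0 rose (median -0.26). The inner-membrane protein gene Letm1 fell by 0.42 ± 0.052, the adenine nucleotide carrier gene Slc25a5 by 0.39 ± 0.058 and the phosphate carrier gene Slc25a3 by 0.26 ± 0.051. The outer-membrane channel genes Vdac2, Vdac1 and Vdac3 fell by 0.39, 0.20 and 0.19. In each of these 6 all 5 tamoxifen-labelled arrays were below all vehicle-labelled ones. Slc25a4, the muscle adenine nucleotide carrier, read 14.03 ± 0.018 and 14.03 ± 0.019 (SD, n = 5), a difference of -0.0060 ± 0.042 near the top of the signal range.

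At the sites that spend ATP, where Ckm is bound, 1 of 9 tested genes rose and 1 fell (median 0.012). The myosin gene Myh7 rose by 0.54 ± 0.14 (limma adjusted p = 0.0113), with 3 of 5 tamoxifen-labelled arrays above all vehicle-labelled ones, and a trended, robust prior ended this call (limma adjusted p = 0.0726). The sodium pump gene Atp1b1 fell by 0.16, with a call lost in 8 of 21 alternatives. The M-band genes Myom1 and Myom2, whose proteins anchor Ckm, differed by 0.090 ± 0.050 and -0.084 ± 0.065 and were not called. Creatine also acts as an osmolyte. Of 6 tested osmolyte genes 1 rose, Slc38a2 as above, and 0 fell (median 0.041).

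**Figure D4:**
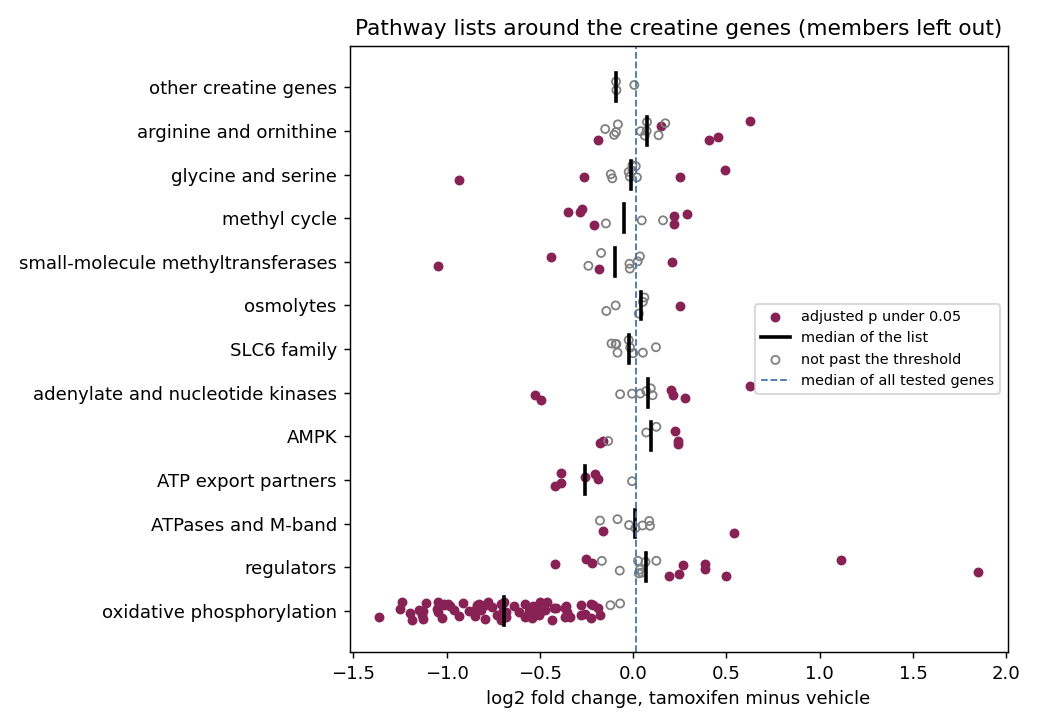
Log2 fold change, tamoxifen-labelled minus vehicle-labelled (horizontal axis), of each tested gene in the 13 pathway lists; filled points passed limma at an adjusted p of 0.05, open points did not, black bars are list medians and the dashed line is the median of all tested genes (0.014). The ATP export partners (median -0.26) and oxidative phosphorylation (median -0.69) lie to the left of the dashed line.

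Among 19 tested regulators 8 rose and 3 fell (median 0.066). Those that rose include Ppargc1a and Ppargc1b, the genes that the labels give as knocked out or deleted. Esrra, a nuclear receptor that works with the PGC-1 proteins, fell by 0.42 ± 0.057, and its relative Esrrg differed by 0.026 ± 0.050. The other relative, Esrrb, named after its values were seen, fell by 0.25 ± 0.073 (limma adjusted p = 0.0200), with a call lost in 3 of 21 alternatives. The remaining regulator that fell was Thrb, also named after its values were seen (-0.22 ± 0.051, limma adjusted p = 0.00518). The muscle factor genes Srf and Tead1 rose by 0.50 ± 0.061 and 0.25 ± 0.050, Pprc1, a relative of the PGC-1 genes, by 0.19 with a call lost in 13 of 21 alternatives, and the NR4A receptor genes Nr4a3, Nr4a1 and Nr4a2 by 1.85, 1.11 and 0.39. The MEF2 factor genes Mef2a, Mef2c and Mef2d, known activators of muscle creatine kinase, differed by 0.066, 0.046 and 0.12 and were not called. Mef2d was called in 4 alternatives, with a limma adjusted p of 0.0254 with a trended and robust prior, 0.0298 with arrays centred on their median, 0.0360 with array weights and 0.0499 with the dimmest 50% left out.

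Creatine genes are also expressed outside cardiac muscle cells, and markers of some other cells differed between the groups too. The counts below stand against 13.7% of all tested genes called higher and 8.31% called lower. The macrophage list had 7 of 9 markers higher, led by Cd68 (0.40), Mrc1 (0.30) and Adgre1 (0.30), and the mean log2 signal of the list ran from 8.72 to 8.92 in the vehicle-labelled and from 8.94 to 9.22 in the tamoxifen-labelled arrays. Of 9 fibroblast markers 6 rose, among them Mfap5 (0.44), Pi16 (0.24) and Lum (0.26; call lost in 1 of 21 alternatives), with list means of 9.68 to 9.84 and 9.89 to 10.12. Their part in the values of Gamt and Slc6a8 was not tested. Of 8 smooth muscle markers, cells that use Ckb, 2 rose, Cnn1 (0.34) and Acta2 (0.24; call lost in 4 of 21 alternatives), with list means of 9.61 to 9.64 and 9.65 to 9.80. Of 7 endothelial markers 1 rose, Cldn5 (0.35), with list means of 10.68 to 10.87 and 10.76 to 10.90. Cldn5 lost its call without vehicle-labelled array 4 and tamoxifen-labelled array 2 together (limma adjusted p = 0.0614). Another endothelial marker, Cdh5, differed by -0.098 and was not called (limma adjusted p = 0.118). All 5 of its tamoxifen-labelled arrays were below all vehicle-labelled ones. Of 8 measured neural and glial markers 3 were bright enough to be tested and 0 were called. Of 11 skeletal muscle markers, a source of Ckm, 7 were tested and 2 rose, Acta1 (1.08), which the stressed heart makes as well, and Tnni2 (0.21), with list means of 7.84 to 8.12 and 8.10 to 8.23. The skeletal myosin genes Myh4 and Myh1 and the genes Mylpf and Pvalb were too dim to be tested. Of 6 liver and kidney markers, organs known for creatine synthesis, 2 were tested, 0 rose and 1 fell, Apoa2 (-0.19; call lost in 13 of 20 alternatives), and Alb was among the 4 dim ones. The calcium channel gene Ryr2 was the 1 cardiomyocyte marker of 9 that fell (0.16), and its call was lost in 4 of 21 alternatives.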

How the data were processed

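Ventricle RNA was hybridised to 10 arrays, 5 per group. Values were deposited on the log2 scale. They came from RMA, run in Affymetrix Expression Console 1.1 according to the notes of the authors; RMA normalizes arrays and summarises probe sets, and it carries no detection call. The table held 35556 probe sets, of which 21789 had 1 gene symbol in the platform annotation, 1621 several and 12146 none. The brightest probe set of each gene was used, and the dimmest 30% of named probe sets (mean log2 under 6.55) were left out. Groups came from the titles. limma 3.58.1 in R 4.3.3 (lmFit, eBayes, two-sided) was fitted on all 13870 genes, with Benjamini-Hochberg adjustment and a threshold of 0.05. Fold changes are on the log2 scale. The fit was tested on a single simulated data set of 13870 genes with 200 changed. Of its 192 calls at the threshold of 0.05, 7.29% were false, and 100% of the changes of 1 log2 unit were recovered.

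The members and the 21 gene lists (13 of pathways and 8 of cell types) were chosen with earlier results of these data known. The rule for named genes took the members, the PGC-1 genes, up to 6 called genes with the smallest p per pathway list, listed partners of members, the 3 genes most alike each member, and up to 3 called genes per cell type list. Esrrb, Thrb, Mybpc3, Myh6, Myl3, Actc1, Pln and Cdh5 were named outside this rule. Promoter windows came from RefSeq (GRCm38.p6). Same-numbered arrays of the groups correlated at 0.039 to 0.203 after group means were removed, and 4 of 5 vehicle-labelled arrays correlated best with their own number. These values cannot settle whether the numbers mark pairs or batches. The labels state no pairing, so the main fit is unpaired, and a fit with the number as a block is given as an alternative. Plots used matplotlib 3.10.9 (Python 3.11.15). With 5 arrays a group, their number sets the precision. The labels do not state that the arrays of a group are separate mice, so p-values measure only the spread between these samples, which may be technical.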

Additional observations from a re-analysis of the deposited data

Results flagged for a closer look

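In 210 groups of 5 arrays, 13 had 1 array far from the other 4; chance flags about 1 group in 20. None was a group of a member or of a within-array difference. In the vehicle-labelled group the array apart was array 4 for Ckmt1 (7.01, the nearest of the others 6.79) and for Inmt (8.73, nearest 8.40), array 5 for Slc25a3 (13.14, nearest 13.17) and for Nr4a2 (7.88, nearest 8.04), array 2 for Eno3 (13.46, nearest 13.49) and for Pprc1 (7.78, nearest 7.53), and array 3 for Acta2 (12.94, nearest 12.83), all in log2 signal. In the tamoxifen-labelled group it was array 2 for Nos1 (7.06, nearest 7.24), for Mfap5 (11.02, nearest 10.73) and for Gnmt (7.36, nearest 7.19), array 3 for Cldn5 (9.65, nearest 10.06) and for Lrg1 (9.55, nearest 9.70), and array 4 for Slc25a4 (14.06, nearest 14.02).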

How the results depend on the processing

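All alternatives but 1 were set with the tests; the exception, tamoxifen-labelled array 2 left out and the others quantile normalized, was chosen after seeing the data. In all 21 alternatives the 6 members and the 3 within-array differences kept their direction. Gamt ranged from 1.90 to 1.98, Gatm from 0.05 to 0.29, Slc6a8 from 0.44 to 0.51, Ckmt2 from -0.40 to -0.31 and Ckb from -0.19 to -0.12. Ckm moved by more than its spread once, to 0.17 after quantile normalization. With the replicate number as a block the SE of Gatm was 0.069 against 0.12 and that of Ckb 0.047 against 0.058, 5 of the 6 members were called against 4, with Ckb added, and 2232 genes were higher and 1300 lower, against 1906 and 1153; of the 5 vehicle-labelled arrays, 4 correlated best with their own number, a hint from the data. With array weights 1780 genes were lower. Ckb was also called with a trended, robust prior, array weights, quantile normalization, the dimmest 50% left out, and in both settings that left out tamoxifen-labelled array 2 together with another change. Without tamoxifen-labelled array 2, 1626 were higher and 1646 lower. In the 8 cell type lists together 2 genes were lower; it was 1 with the replicate block, with dim probe sets kept and with probe sets of several genes kept, 4 after quantile normalization, and 0 to 3 with 1 array left out. Of 96 named genes tested, 18 changed call in at least 1 alternative and 78 in none. Thrb, Mybpc3, Myh6, Myl3, Actc1, Pln and Cdh5 were not among these 96. Of the 18, calls were lost for Srm, Slc38a2, Pprc1 and Apoa2 in 13 alternatives each (highest adjusted p 0.124, 0.132, 0.172 and 0.125), and for Gnmt, Atp1b1, Ak4, Stk11, Ryr2, Acta2, Esrrb and Lum in fewer, so the list counts that hold them move with the setting. The others were Myh7, Nme6, Cldn5 and Mef2d, given above, and Tomm7 and Gpc1, which were called after quantile normalization (limma adjusted p = 0.0335 and 0.0229), Tomm7 also with the replicate block (0.0498) and Gpc1 also with array 2 left out and the others quantile normalized (0.0474). Counts called in single lists moved by over 1.5 times in 99 cases and not in 783. The cause of these changes was not tested. Dim signals limit the lists: SLC6, neural and liver or kidney markers lost 9, 5 and 4 measured genes to the filter.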
